A study of Mus musculus with 36 samples.

Results

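The genes described here were 40 factors of blood coagulation and complement, chosen by gene symbol and followed in 3 tissues of mice given an amino acid mixture or water. A probe set was taken as a member when the platform annotation gave it exactly 1 of the 40 symbols. Of the 40 genes, 38 had a probe set, 51 probe sets in all, among 18193 genes named by a single symbol on the arrays and 45037 probe sets tested. Cpb2, which encodes an inhibitor of fibrinolysis, and C3, the central protein of complement, had none under those symbols and were not analysed here. For 7 genes with more than 1 probe set, the probe set with the highest mean over all arrays stands for the gene.

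The 36 Affymetrix arrays came from liver and from the white (WAT) and brown (BAT) adipose tissue of 12 male mice of the outbred ddY stock. They were 5 weeks old when purchased and were acclimatised for 1 week. By oral tube, 7 mice (numbers 1 to 7) received distilled water (DW, called water here) and 5 mice (numbers 2, 4, 5, 6 and 7) received CAAM, amino acids in the proportions of casein, as a 1.8% solution at 37.5 µL per g body weight. All mice were dosed once a day 5 times, lost access to food 2 h before the last dose and were killed 4 h after it. The authors had left out 2 further CAAM mice for abnormal liver morphology, and whether this bears on the liver values was not tested. Each mouse gave 1 array per tissue. By their means, marker lists fitted the tissue labels. The 6 hepatocyte markers averaged 14.02 score units in liver against 6.84 in WAT and 6.65 in BAT, and the 6 brown adipocyte markers 11.84 in BAT, 6.96 in WAT and 7.15 in liver. The 4 measured adipocyte markers averaged 13.59 in WAT, 11.28 in BAT and 7.08 in liver. Of the brown list, in the water mice, Elovl3 was higher in liver (9.86) than in BAT (8.47), and Dio2 was close in both (7.05 and 7.11). The values are distribution free weighted (DFW) scores, whose level is on a scale like log2 while deviations between arrays of 1 tissue are shrunk. Array medians were 6.81 for liver, 6.92 for WAT and 6.78 for BAT.

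Coagulation factors and most complement proteins circulate in plasma and are known as products of the hepatocyte. In coagulation, tissue factor and the contact factors start a chain of proteases that ends in thrombin, which turns fibrinogen into fibrin. Complement is started by C1q on bound antibody, by lectins on sugars or by the alternative pathway, and ends in the membrane attack complex. Some of these genes are known to be used outside hepatocytes, among them the C1q chains and properdin in macrophages and other myeloid cells.

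In the water mice, 30 of 38 members were at least 1 score unit higher in liver than in WAT and 33 were at least 1 unit higher in liver than in BAT. Among all probe sets, 3.96% were that much higher in liver than in WAT and 5.02% than in BAT. F13a1 and F3 were the 2 members at least 1 unit lower in liver than in WAT, and the same 2 than in BAT, against 8.34% and 4.59% of all probe sets. No member was 1 unit higher in BAT than in WAT, a rise seen in 1.77% of all probe sets, and 6 were 1 unit lower, against 4.90%. The median difference over the members was 5.44 units between liver and WAT and 5.53 between liver and BAT, while the medians over all probe sets were -0.05 and 0.02. Each tissue appears to have been summarised in a separate run, and with no minimum difference 99.7% to 99.9% of all probe sets passed limma's test between tissues, so these differences are given without an error, as a description by size. Every difference of at least 1 unit between liver and a fat kept its direction in the CAAM mice and after all arrays were quantile normalised together.

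**Figure D1:**
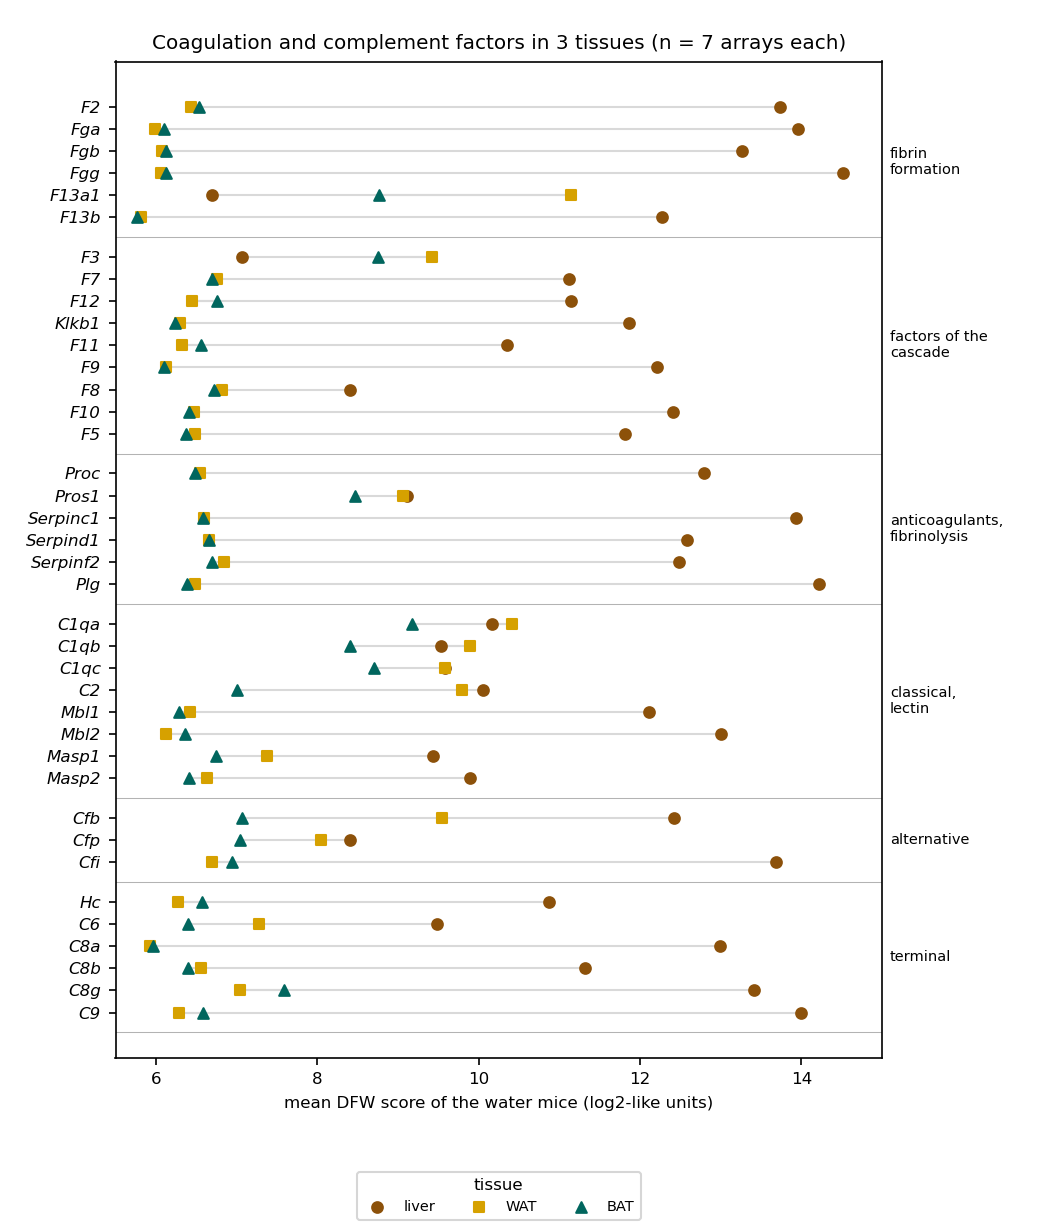
Mean DFW score of the 7 water mice (x axis, log2-like units) for each of 38 members (rows, grouped by role) in liver (circles), WAT (squares) and BAT (triangles). Most members sat between 8.41 and 14.52 in liver and near the array median in both fats, while F13a1 and F3 were highest in WAT and the C1q chains and Pros1 each differed by under 1 unit between liver and WAT.

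Among the genes of fibrin formation, 5 of 6 were liver genes. Fga, Fgb and Fgg, which encode the chains of fibrinogen, had levels of 13.96, 13.27 and 14.52 in liver. Their levels in WAT were 5.99, 6.08 and 6.07, and in BAT 6.10, 6.13 and 6.13, below the array medians. F2, the precursor of thrombin, was at 13.73 in liver, 6.44 in WAT and 6.53 in BAT. F13b, the carrier subunit of factor XIII, was at 12.27, 5.82 and 5.77. Its partner F13a1, the subunit with the cross-linking activity, ran the other way, with 6.69 in liver, 11.15 in WAT and 8.76 in BAT. The 2 subunits of factor XIII were thus split between tissues, and only F13a1 lay above the array median in fat.

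The 3 fibrinogen genes are neighbours in the order of protein-coding genes (Fgg, Fga, Fgb), and their differences between liver and WAT were 8.45, 7.97 and 7.19. Their promoters are shown because the 3 genes shared a pattern over tissues. The RefSeq table (GRCm38.p6) gave Fga at chr3:83025903-83026202 on the + strand, Fgb at chr3:83049814-83050113 on the - strand and Fgg at chr3:83007474-83007773 on the + strand, each from 250 bases before to 50 bases after the start. Capitals mark matches on either strand to GTTAAT (part of the HNF1 site), CAAAGNNCA (an HNF4 type repeat), TTGCNNAA (C/EBP type), TTCNNNGAA (STAT type) or GAGGAA (the core read by ETS factors), which can overlap.

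Fga: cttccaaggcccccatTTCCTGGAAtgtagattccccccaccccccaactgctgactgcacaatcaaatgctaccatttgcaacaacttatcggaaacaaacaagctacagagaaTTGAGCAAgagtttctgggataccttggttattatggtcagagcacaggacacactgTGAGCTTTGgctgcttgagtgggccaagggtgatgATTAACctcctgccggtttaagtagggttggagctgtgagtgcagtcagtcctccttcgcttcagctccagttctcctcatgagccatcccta

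Fgb: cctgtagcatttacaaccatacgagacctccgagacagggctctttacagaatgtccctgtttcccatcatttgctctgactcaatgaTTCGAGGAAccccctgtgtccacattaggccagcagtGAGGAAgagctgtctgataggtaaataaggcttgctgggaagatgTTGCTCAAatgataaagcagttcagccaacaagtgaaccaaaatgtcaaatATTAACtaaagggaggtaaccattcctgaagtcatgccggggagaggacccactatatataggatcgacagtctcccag

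Fgg: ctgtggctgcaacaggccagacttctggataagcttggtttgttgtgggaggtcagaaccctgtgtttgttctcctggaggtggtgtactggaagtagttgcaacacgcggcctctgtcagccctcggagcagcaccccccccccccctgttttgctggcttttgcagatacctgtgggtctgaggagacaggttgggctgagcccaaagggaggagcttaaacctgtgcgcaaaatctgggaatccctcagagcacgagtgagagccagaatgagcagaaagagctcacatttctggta

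Fga held 4 matches and Fgb 5, while Fgg held 0. Of the 38 members, 31 matched the table with 33 promoters. GTTAAT stood in 8 of the 33 promoters (F13b, Hc, F2, Fga, Fgb, C8b, C8a and Cfp) and in 7.10% of all 32851 promoters of the table. CAAAGNNCA stood in 6 of 33 and 6.36% of all, TTGCNNAA in 7 and 10.8%, TTCNNNGAA in 6 and 8.30%, and GAGGAA in 7 and 28.3%. These matches are a description of letters in the window, and the letters were chosen with the sequences in view.

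Of the 9 factors that start and amplify coagulation, 8 were at least 1 unit higher in liver than in either fat. Their levels in liver ran from 8.41 for F8, the cofactor missing in haemophilia A, to 12.41 for F10, which cleaves prothrombin. F9, the protease missing in haemophilia B, was at 12.21 in liver and 6.13 and 6.10 in the fats. F7, the partner of tissue factor, was at 11.12, 6.76 and 6.69. F5, the cofactor of factor X, was at 11.81, 6.49 and 6.37. The contact factors F12, Klkb1 and F11 were at 11.15, 11.86 and 10.35 in liver and between 6.24 and 6.76 in fat. F8 showed the smallest step of these 8 genes, 6.82 in WAT and 6.72 in BAT. F3, tissue factor itself, a membrane protein known from cells around vessels, was at 7.07 in liver, 9.42 in WAT and 8.75 in BAT.

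Among the anticoagulants and the fibrinolytic genes, Pros1 stood apart from 5 liver genes. Serpinc1 (antithrombin) was at 13.94 in liver, 6.60 in WAT and 6.58 in BAT, and Plg (plasminogen) at 14.22, 6.48 and 6.38. Proc (protein C), Serpind1 (heparin cofactor II) and Serpinf2 (the inhibitor of plasmin) were at 12.80, 12.58 and 12.48 in liver and between 6.49 and 6.84 in fat. Pros1, which encodes protein S, the cofactor of protein C, was at 9.11 in liver, 9.06 in WAT and 8.47 in BAT. The cofactor was thus within 1 unit of its liver level in both fats, and the protease it serves was not.

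All 6 genes of the terminal pathway were at least 1 unit higher in liver than in each fat. C8g, C8a, C8b and Hc (the mouse gene of C5) were at 13.41, 12.99, 11.32 and 10.87 in liver, and C6 at 9.49. C9, which forms the ring of the membrane pore, was 7.71 higher in liver than in WAT and 7.41 higher than in BAT. C6 was at 7.28 in WAT and 6.40 in BAT. C8g was at 7.04 in WAT and 7.59 in BAT. The lectin Mbl1 was at 12.11 in liver, 6.42 in WAT and 6.29 in BAT, and Mbl2 at 13.01, 6.12 and 6.36. Their proteases Masp1 and Masp2 were at 9.43 and 9.89 in liver, 7.38 and 6.64 in WAT, and 6.75 and 6.41 in BAT.

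The C1q chains differed little between liver and WAT. C1qa was at 10.17 in liver, 10.41 in WAT and 9.18 in BAT. C1qb was at 9.53, 9.89 and 8.41. C1qc was at 9.58 in both liver and WAT and at 8.70 in BAT. The differences between liver and WAT, -0.24, -0.36 and 0.00 units, were small beside the median of 5.44 over the members. C1qa and C1qb were at least 1 unit lower in BAT than in WAT, by 1.23 and 1.48, and C1qc was 0.89 lower. In bulk tissue, fewer cells of a type and less RNA per cell cannot be told apart.

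Of the 3 alternative pathway genes, Cfi (the protease that inactivates C3b) was a liver gene, with 13.69 in liver, 6.69 in WAT and 6.94 in BAT. Cfb, the protease of the alternative pathway, was at 12.42 in liver, 9.55 in WAT and 7.07 in BAT. Its neighbour C2, the matching protease of the classical pathway, was at 10.06, 9.79 and 7.0. Both steps from WAT to BAT, 2.48 and 2.79 units, exceeded those of the other 36 members. Cfp (properdin, which stabilises the alternative convertase) was at 8.41, 8.05 and 7.04. The 6 members at least 1 unit lower in BAT than in WAT were C2, Cfb, F13a1, C1qb, C1qa and Cfp. After quantile normalisation of all arrays together, the step of Cfp was -0.73, under 1 unit, and the difference of C1qb between liver and BAT went from 1.12 to 0.99.

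In all, 14 of the 38 members formed 8 pairs of neighbours in gene order. F7 and F10, F11 and Klkb1, and C8b and C8a each had both partners at least 1 unit higher in liver than in each fat. In the C1q cluster (C1qb, C1qc, C1qa) no gene was that much higher in liver than in WAT. Cfb and C2 shared the step from WAT to BAT but not the one from liver to WAT, which was 2.87 for Cfb and 0.27 for C2.

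The promoters of C1qb (chr4:136886151-136886450, - strand), C1qc (chr4:136892865-136893164, - strand) and F13a1 (chr13:37050195-37050494, - strand) are shown as those of members with high levels in fat, with the same marking.

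C1qb: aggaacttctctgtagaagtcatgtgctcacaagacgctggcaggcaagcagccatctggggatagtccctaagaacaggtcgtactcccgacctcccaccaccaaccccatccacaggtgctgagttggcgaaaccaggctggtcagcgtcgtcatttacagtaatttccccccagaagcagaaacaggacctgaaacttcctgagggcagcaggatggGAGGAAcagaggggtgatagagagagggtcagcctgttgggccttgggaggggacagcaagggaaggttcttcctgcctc

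C1qc: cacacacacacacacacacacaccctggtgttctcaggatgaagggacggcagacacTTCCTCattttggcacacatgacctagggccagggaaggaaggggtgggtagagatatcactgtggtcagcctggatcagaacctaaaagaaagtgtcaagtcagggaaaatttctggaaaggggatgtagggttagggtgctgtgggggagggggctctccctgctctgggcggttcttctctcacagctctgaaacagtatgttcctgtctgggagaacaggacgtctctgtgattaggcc

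F13a1: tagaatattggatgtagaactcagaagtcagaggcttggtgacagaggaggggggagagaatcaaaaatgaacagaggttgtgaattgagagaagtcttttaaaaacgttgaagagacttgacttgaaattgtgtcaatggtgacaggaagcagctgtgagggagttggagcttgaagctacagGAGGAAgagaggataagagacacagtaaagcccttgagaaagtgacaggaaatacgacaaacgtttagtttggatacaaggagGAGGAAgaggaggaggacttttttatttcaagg

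C1qb and C1qc each held 1 match and F13a1 2, all of them to GAGGAA. None of the other 4 motifs stood in these 3 windows, which says only that those letters are not there. GAGGAA also stood in promoters of Fgb and F7, which were higher in liver. Of other members within 1 unit between liver and WAT, Cfp held GTTAAT beside GAGGAA, and Pros1 held TTCNNNGAA.

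Of 60 other genes of coagulation and complement looked up, 49 had a probe set. Among 25 other coagulation and fibrinolysis genes, 10 were at least 1 unit higher in liver than in WAT and 8 lower. Higher were Kng1 (kininogen) by 7.22 units, Hrg by 6.41 and Serpina10, an inhibitor of factor X, by 5.76. Lower were 8 genes, among them some known from the vessel wall and from fibrinolysis at cell surfaces: Anxa2 by -5.42, Thbd (thrombomodulin) by -3.44, Plat (tissue plasminogen activator) by -2.33, Tfpi (the inhibitor of the tissue factor pathway) by -2.11, Plau (urokinase) by -1.80, Procr (the receptor of protein C) by -1.56 and Vwf by -1.51. Among 24 other complement genes, 13 were at least 1 unit higher in liver than in WAT, led by Vtn (5.72), C4bp (5.69) and Cpn2 (5.55). Cd55, which protects host cells from complement, was the 1 lower gene (-2.05). C1ra and C1s, the proteases that act with C1q, were at 11.33 and 11.18 in liver, 8.99 and 9.58 in WAT, and 7.30 and 7.51 in BAT.

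For CAAM against water, no member passed limma's moderated test at an adjusted p of 0.05 in any tissue, and neither did any other probe set (0% called in liver, WAT and BAT). At an unadjusted p under 0.05, limma listed 3 of 38 members in liver, 0 in WAT and 1 in BAT, and 3047, 1784 and 2886 of all 45037 probe sets. No member had groups that did not overlap. Among all probe sets, the CAAM mice lay wholly above the water mice in 0.167% in liver, 0.0977% in WAT and 0.191% in BAT, and wholly below in 0.275%, 0.124% and 0.138%. The authors' own method, rank products, called 6 members higher and 1 lower in liver, 0 and 1 in WAT, and 3 and 0 in BAT. Over all probe sets, it called 1.63% higher and 1.17% lower in liver, 0.828% and 1.95% in WAT, and 1.19% and 2.05% in BAT. Rank products order unscaled differences, and of its calls 99.7% in liver, 97.8% in WAT and 98.8% in BAT fell among the 10% most variable probe sets. It called 58, 67 and 36 probe sets both higher and lower. With differences divided by their SD it called 0 members in every tissue. A size is given below as a standardised difference, CAAM minus water in SD within groups, with a standard error of 0.59 (n = 7 and 5), and a mouse's value in the same SD units from the water mean.

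**Figure D2:**
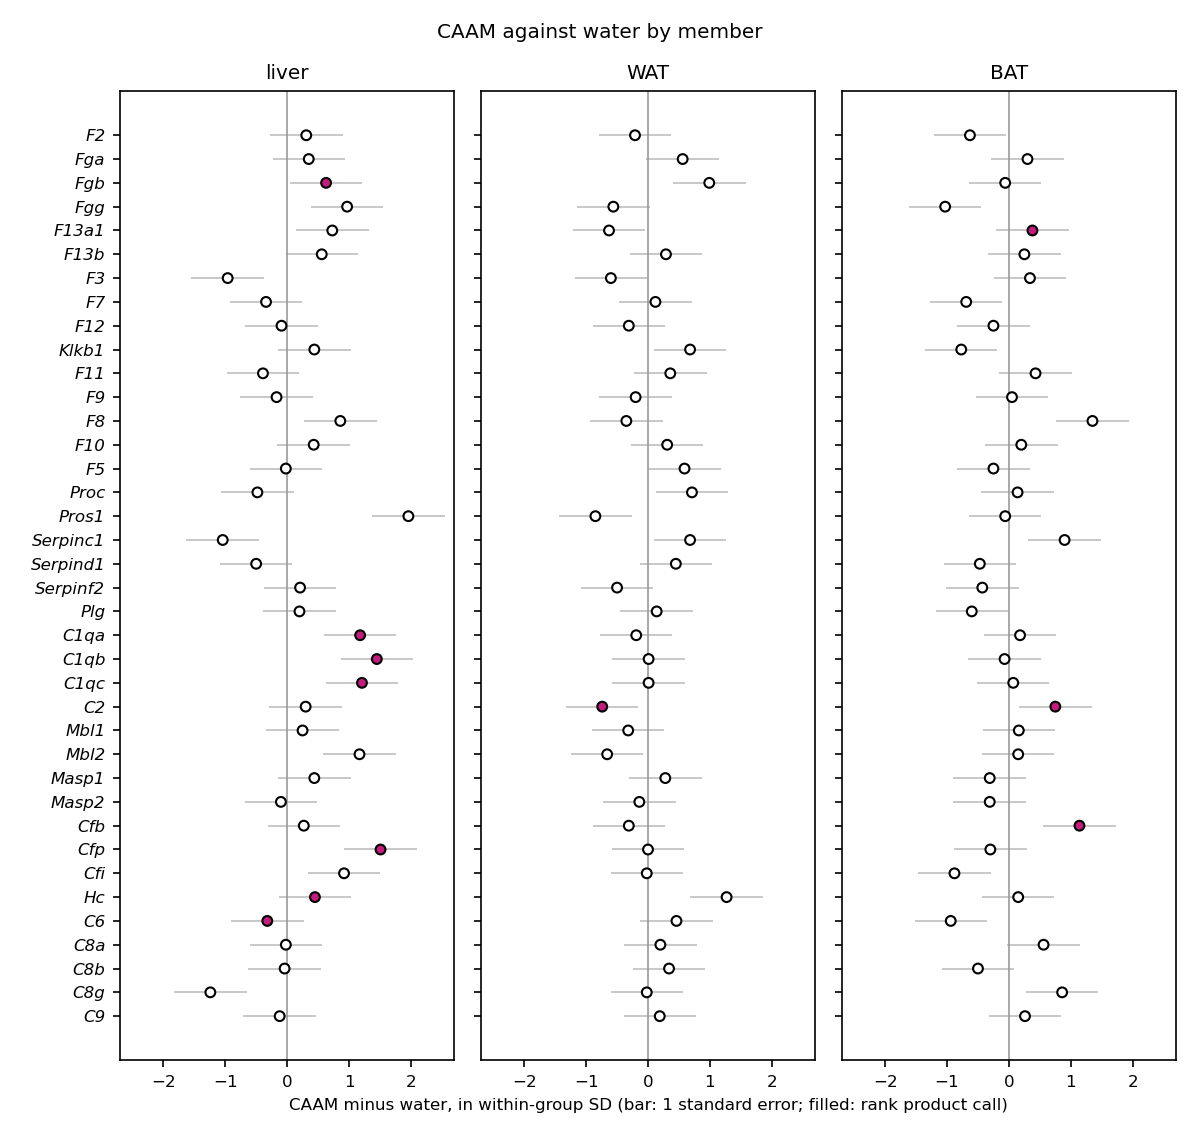
Standardised difference between CAAM and water (x axis, in SD within groups, bars 1 standard error of 0.59) for 38 members (rows) in liver, WAT and BAT, 7 water and 5 CAAM mice each. Filled circles mark rank product calls, 7 in liver, 1 in WAT and 3 in BAT, and Pros1 in liver lies farthest from 0, at 1.96.

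In liver, the 3 C1q chains and properdin were among the 6 members that rank products called higher. C1qb was higher by 1.45 (limma adjusted p = 0.713). Its values in the CAAM mice 2, 4, 5, 6 and 7 were 0.51, 0.73, 3.04, 1.13 and 1.83, and in the water mice they ran from -1.61 over a median of -0.08 to 1.48. All 5 CAAM mice were above the water mean, 2 of them above every water mouse, and the groups overlapped. The other 2 probe sets of C1qb were higher by 1.58 and 1.60, and rank products called both.

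C1qc was higher by 1.21 (limma adjusted p = 0.741), with 0.54, 0.42, 2.74, 0.94 and 1.42 in the CAAM mice against -1.56 to 1.70 in the water mice, median -0.07. C1qa was higher by 1.18 (limma adjusted p = 0.745), with 0.09, 0.93, 3.24, 0.56 and 1.08 against -1.24 to 1.33, median 0.18. Cfp was higher by 1.51 (limma adjusted p = 0.702), with 0.45, 0.80, 3.15, 1.06 and 2.11 against -1.08 to 1.55, median 0.12. The same animal, CAAM mouse 5, was highest for all 4 genes, and water mouse 6 was lowest. Without CAAM mouse 5, rank products still called the C1q chains but no longer Cfp. After quantile normalisation the sizes of C1qa and Cfp were 0.54 each and their rank product calls were lost, while C1qb and C1qc kept 1.48 and 1.21 and their calls.

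Macrophage markers moved with these genes. All 10 markers in that list were higher in the livers of CAAM mice, with a median standardised difference of 1.36. Rank products called 8 of them higher, against 1.63% of all probe sets, while limma called 0% of all probe sets. The median of the list ran from -0.71 to 1.04 in the water mice and from 0.14 to 3.08 in the CAAM mice, highest in CAAM mouse 5. Csf1r, the receptor for the growth factor of macrophages, was at 0.62, 1.33, 3.15, 0.15 and 2.01 in the CAAM mice (standardised difference 1.45, limma adjusted p = 0.712). The acute phase list was also higher in all 10 genes, with a median of 0.71, CAAM mouse 5 highest. Rank products called 5 of these 10 genes higher and 2 lower, against 1.63% and 1.17% of all probe sets. The 2 lower calls went against the direction of the mean differences of those genes. Both lists were taken as deposited, without other scaling. The part of cell number and of inflammation in the C1q values was not tested.

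**Figure D3:**
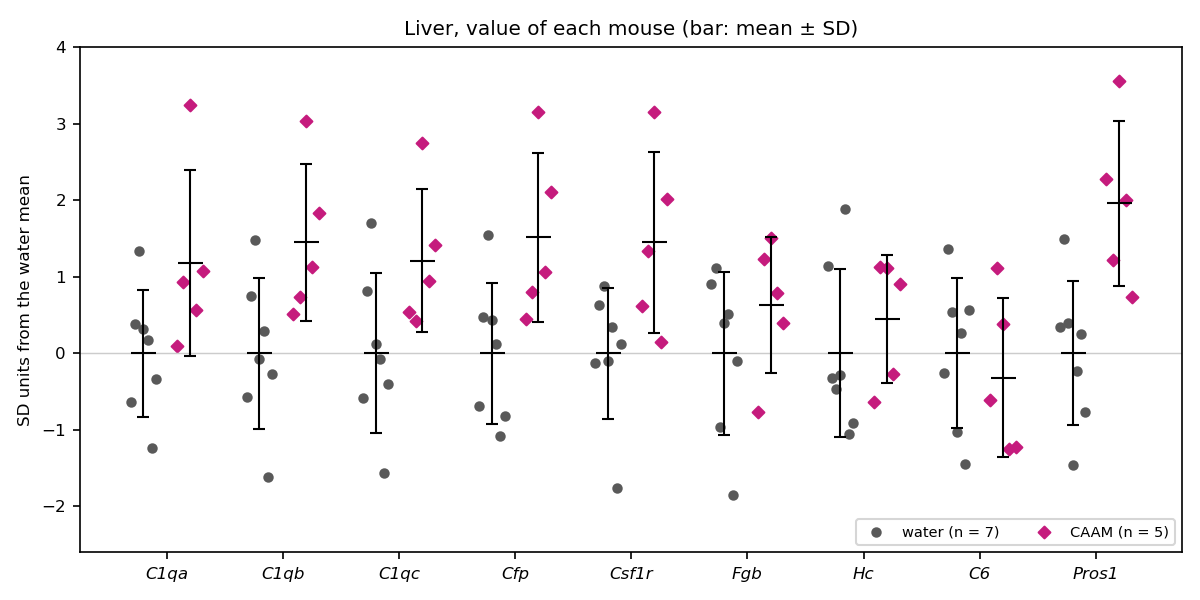
Liver values of each mouse (y axis, SD units from the water mean) for 8 members and the macrophage marker Csf1r, with 7 water mice (circles) and 5 CAAM mice (diamonds), mean ± SD as bars. CAAM mouse 5 is the top point of C1qa, C1qb, C1qc, Cfp, Csf1r and Pros1, at 3.24, 3.04, 2.74, 3.15, 3.15 and 3.55.

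Of 6 genes of fibrin formation, all 6 were higher in the livers of CAAM mice as deposited, by 0.31 to 0.97, with a median of 0.59, against 20025 of 45037 probe sets higher and a median of -0.09. This count depended on the scaling: 3 were higher after quantile normalisation, which left F13b without spread, and 1 of the 6 after centring, against 9343 and 1960 of all probe sets. The 1 whose direction held in both was Fgb, the member of this group that rank products called. Fgb was higher by 0.63 (limma adjusted p = 0.881). Its CAAM values were -0.77, 1.23, 1.51, 0.79 and 0.40, and the water values ran from -1.85 to 1.11, median 0.40, so the groups overlapped widely. The call was lost without CAAM mouse 4 or CAAM mouse 5, and the size ran from 0.40 to 1.07 when 1 mouse was left out.

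Hc and C6, of the terminal pathway, were called in opposite directions. Hc was called higher at a standardised difference of 0.45 (limma adjusted p = 0.927), with -0.63, 1.13, 1.12, -0.27 and 0.91 in the CAAM mice and -1.05 to 1.89, median -0.32, in the water mice. C6 was called lower at -0.32 (limma adjusted p = 0.956), with -0.61, 1.11, 0.38, -1.25 and -1.22 in the CAAM mice and -1.44 to 1.36, median 0.27, in the water mice. In both genes the CAAM values lay within the range of the water mice. Their SDs within groups, 0.0176 and 0.00526 score units, were far above the median SD of 1.08e-05 over all probe sets.

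Pros1 had the largest standardised difference of any member, 1.96 in liver (limma adjusted p = 0.674), and was not called by rank products. Its values were 2.28, 1.22, 3.55, 2.0 and 0.74 in the CAAM mice and -1.46 to 1.49, median 0.25, in the water mice, so 3 of 5 CAAM mice were above every water mouse. The size fell to 0.16 after centring of the arrays and to -0.01 after quantile normalisation. The other largest positive sizes in liver were Mbl2 at 1.17, which turned to -1.14 after centring and -1.41 after quantile normalisation, and those of the genes above. On the lower side were C8g at -1.24, Serpinc1 at -1.04, F3 at -0.96, Serpind1 at -0.50, Proc at -0.48 and F11 at -0.39, none of them called. Quantile normalisation turned C8g to 1.20 and F11 to 0.69, and left Serpinc1 and Serpind1 without any spread. F3 kept its direction, at -0.71 and, after centring, -1.79. Probe sets of a gene could disagree: of the 5 of Masp1, the protease of the lectin pathway, 1 was at 2.03 and another at -0.36 in liver beside 0.44 for the one used, and the other 2 of F10 were at 1.30 and -0.90 in BAT beside 0.20.

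In WAT, 20 of 38 members were higher and 18 lower as deposited, with a median of 0.01, the same median as over all probe sets. C2 was the only member that rank products called, lower by -0.74 (limma adjusted p = 1.0). Its values were -0.92, -0.66, -0.45, -2.64 and 0.98 in CAAM mice 2, 4, 5, 6 and 7 and -1.04 to 1.17, median 0.24, in the water mice. CAAM mouse 6 was the lowest of all 12 and CAAM mouse 7 the second highest. The other 2 probe sets of C2 were lower by -0.62 and -0.74, and rank products called both. The call was lost without CAAM mouse 6, without water mouse 3 and after quantile normalisation (-0.47). Its neighbour Cfb was not called, at -0.31, with -1.18, -0.44, 0.56, -2.15 and 1.67 in the CAAM mice and -0.62 to 0.48 in the water mice. The CAAM mice thus lay on both sides of the water mice, 2 of them below all water mice and 2 above.

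Pros1 was lower in WAT by -0.85, Mbl2 by -0.66, F13a1 by -0.63, F3 by -0.60 and Fgg by -0.56, none of them called. Centring turned Pros1, Mbl2 and Fgg, and quantile normalisation turned Mbl2, F13a1, F3 and Fgg. On the higher side were Hc at 1.27, Fgb at 0.99, Proc at 0.71, Serpinc1 at 0.68, Klkb1 at 0.68 and F5 at 0.59, also not called, and Hc turned to -0.02 after quantile normalisation. CAAM mouse 6 was the lowest CAAM mouse for C2, Cfb, Pros1, F3, F13a1 and Csf1r. Its macrophage list stood at -1.76 and its endothelium list at -2.16, the lowest of the 12 mice, and its list of epididymis genes at 3.28, the highest. All 4 mesothelium markers were lower in the WAT of CAAM mice and called so by rank products, against 1.95% of all probe sets. Their list median ran from -1.42 to 1.44 in the water mice and from -2.47 to -0.64 in the CAAM mice. What these other tissues add to the values of C2 was not tested. Without the 4 WAT arrays high in epididymis genes (water mice 1 and 2, CAAM mice 6 and 7), C2 was called lower, at -1.0. That left CAAM mice 2, 4 and 5. Of the mice taken out, CAAM mouse 6 was the lowest for C2, and CAAM mouse 7 was the only CAAM mouse above the water mean.

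**Figure D4:**
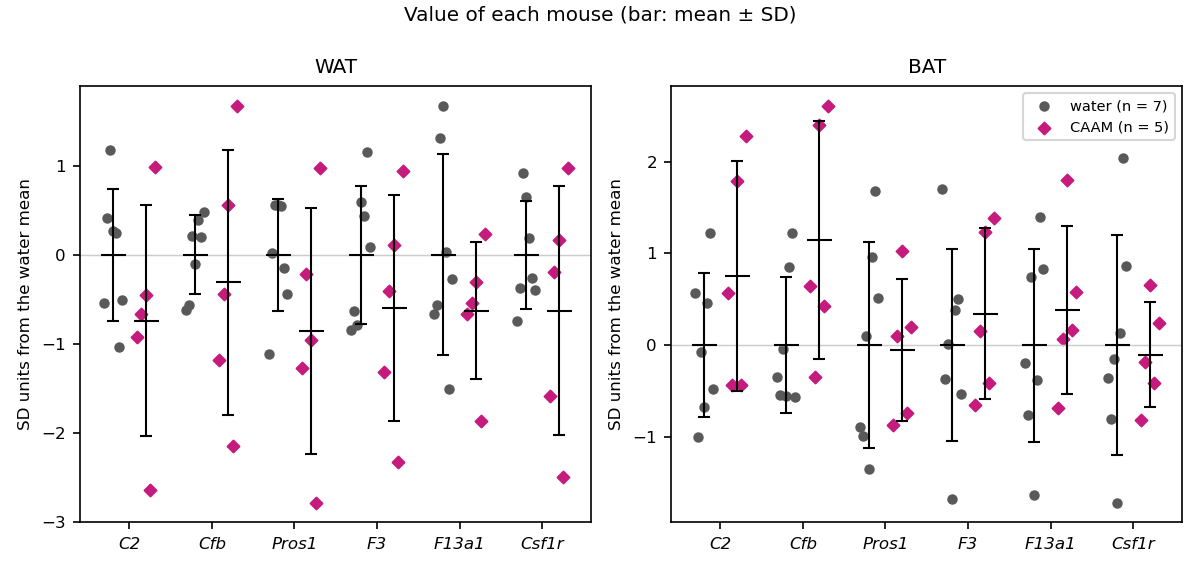
Values of each mouse in WAT and BAT (y axis, SD units from the water mean) for C2, Cfb, Pros1, F3, F13a1 and the macrophage marker Csf1r, with 7 water mice (circles) and 5 CAAM mice (diamonds), mean ± SD as bars. In WAT the CAAM values of Cfb, Pros1 and Csf1r reached past the water mice on both sides, those of C2, F3 and F13a1 only below, and in BAT CAAM mice 5 and 7 are the top points of C2 and Cfb.

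In BAT, 20 of 38 members were higher and 18 lower as deposited, with a median of 0.06, against -0.01 over all probe sets, while after either scaling 37 of the 38 were higher, as were 43596 and 44371 of the 45037 probe sets. Rank products called F13a1, C2 and Cfb higher. Cfb was higher by 1.14 (limma adjusted p = 0.801), with 0.64, -0.35, 2.40, 0.43 and 2.61 in the CAAM mice and -0.57 to 1.22, median -0.35, in the water mice. C2 was higher by 0.75 (limma adjusted p = 0.895), with 0.57, -0.44, 1.79, -0.44 and 2.28 against -1.0 to 1.22, median -0.08. CAAM mice 5 and 7 were above all water mice for both genes, and the other 3 CAAM mice lay among them. F13a1 was higher by 0.38 (limma adjusted p = 0.965), with -0.69, 0.06, 1.80, 0.16 and 0.58 against -1.64 to 1.40, median -0.20, and 1 CAAM mouse was above all water mice. Of the 10 macrophage markers in BAT, 7 were lower in the CAAM mice. Rank products called 5 of the markers lower and 1, Cd163 (0.82), higher, against 2.05% and 1.19% of all probe sets. The list was highest in water mouse 6 (2.01), and the part of macrophages in these values was not tested.

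These calls in BAT were less stable than those in liver. When each of the 12 mice was left out in turn, Cfb was called in 8 of 12 fits, F13a1 in 5 and C2 in 4, while C1qa, C1qb and C1qc in liver were called in all 12. All 3 BAT calls were lost after quantile normalisation. The other 2 probe sets of C2 were higher by 0.70 and 0.16 and not called, and the other 2 of C1qb, at -0.27 and -0.09, were called lower although the main probe set was not. All 5 muscle markers were lower in the BAT of CAAM mice and called so by rank products, against 2.05% of all probe sets. The muscle list was highest in water mouse 1 (1.72) and CAAM mouse 2 (1.33). Without the 3 BAT arrays high in muscle genes, F13a1 was still called, at 0.71, and Cfb (1.02) and C2 (0.77) were not. F8 had the largest size in BAT, 1.35 (limma adjusted p = 0.775), and the other larger sizes on the higher side, beside Cfb and C2, were Serpinc1 at 0.90, C8g at 0.86 and C8a at 0.56. On the lower side were Fgg at -1.03, C6 at -0.94, Cfi at -0.88, Klkb1 at -0.77, F7 at -0.69 and F2 at -0.63, all of which turned to higher after either scaling.

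No member's difference between CAAM and water was shown to differ between tissues. limma's interaction test over 12 mice called 0 members and 0% of all probe sets for liver against WAT, 0% for liver against BAT and 0% for BAT against WAT. The test took unscaled score differences within mice, not the standardised sizes given below, so the tissue with the larger SD weighed most. For Cfi the SD within groups was 1.93e-06 score units in liver and 0.00539 in WAT. The test thus cannot show that standardised sizes were alike between tissues. At an unadjusted p under 0.05 the interaction listed 2 members between liver and WAT, Pros1 (1.96 and -0.85, limma adjusted p = 0.896) and C1qb (1.45 and 0.01, limma adjusted p = 0.896). Between liver and BAT it listed Pros1 (1.96 and -0.06, limma adjusted p = 0.735), and between BAT and WAT 0 members. Over all probe sets it listed 2425, 2787 and 2507.

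Across mice, the C1q chains, properdin and F13a1 followed Csf1r in nearly every tissue. Of 15 relations (5 genes in 3 tissues, 12 mice each, two-sided permutation test with 100000 resamples), 14 had an adjusted p under 0.05. The 5 genes were picked as known from macrophages and other myeloid cells. Relations of other probe sets with Csf1r were not computed, so the count has no share over all probe sets beside it. For C1qb, Pearson's r with Csf1r was 0.934 in liver (permutation p = 5e-05, adjusted p = 0.00025; Spearman's rho 0.895, p = 0.00023), 0.782 in WAT (p = 0.00311, adjusted p = 0.003887, permutation test; rho 0.846, p = 0.00102) and 0.827 in BAT (p = 0.00017, adjusted p = 0.0003643, permutation test; rho 0.916, p = 0.0001). Without the 2 mice farthest from the median these were 0.785, 0.746 and 0.798. Within the 7 water mice they were 0.936, 0.701 and 0.835.

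For C1qa, r was 0.918 in liver, 0.867 in WAT and 0.795 in BAT, and for C1qc 0.893, 0.772 and 0.841. Cfp had 0.891, 0.878 and 0.943. F13a1 followed Csf1r in WAT (0.778) and BAT (0.863), the tissues where its level was high. In liver, where F13a1 was near the array median, r was 0.529 (permutation p = 0.07335, adjusted p = 0.07335), 0.126 without the 2 farthest mice, and turned to -0.317 after centring. With Adgre1, another macrophage marker, in place of Csf1r, 14 of the 15 relations again passed, and F13a1 in liver did not (r = 0.397). In the water mice alone, 10 of 15 passed with Csf1r and 12 of 15 with Adgre1.

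**Figure D5:**
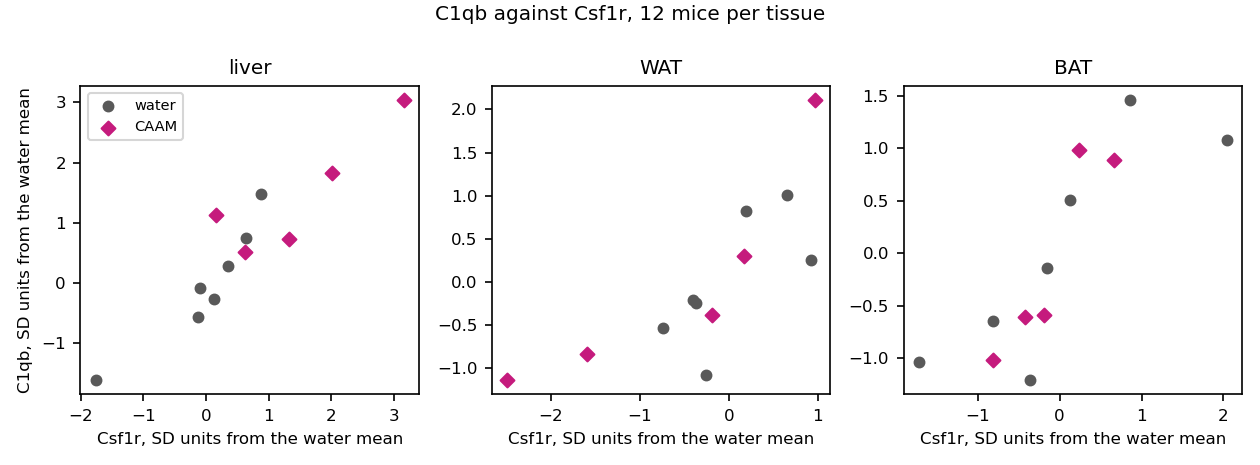
C1qb (y axis) against the macrophage marker Csf1r (x axis), both in SD units from the water mean, for 7 water mice (circles) and 5 CAAM mice (diamonds) in liver, WAT and BAT. The points of both groups lie along a common rise, with Pearson's r of 0.934, 0.782 and 0.827 over 12 mice.

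Members were also compared with each other in pairs, a step added after the values were seen. Of 703 pairs of members per tissue, 8 passed the permutation test at an adjusted p of 0.05, 12 and 9 in liver, WAT and BAT, with a median absolute r over all pairs of 0.267, 0.278 and 0.266. Of these, 6, 6 and 8 also passed by Spearman's rho. Pairs of other probe sets were not computed, so the counts have no share over all pairs beside them. They also depended on the scaling, with 404, 603 and 511 after centring. The water mice alone gave 0 in each tissue, but so few mice allow few p-values small enough for 703 pairs. This 0 thus cannot show whether the relations depended on the mice. Among the C1q chains, r in the water mice ran from 0.897 (C1qa with C1qc in WAT) to 0.996 (C1qb with C1qc in WAT). The pairs C1qb with C1qc (0.985 in liver, 0.990 in WAT and 0.972 in BAT), C1qa with C1qb (0.953, 0.958 and 0.920) and C1qa with C1qc (0.947, 0.958 and 0.962) passed in every tissue. Cfp passed with all 3 chains in liver (0.952 to 0.968) and in WAT (0.835 to 0.894), and with C1qb (0.879) and C1qc (0.868) in BAT. In WAT, Cfp with C1qb and with C1qc did not pass by rho (adjusted p = 0.09736 and 0.08397, permutation test). In the water mice, r of Cfp in WAT was 0.684 with C1qa, 0.542 with C1qb and 0.577 with C1qc. The neighbours C2 and Cfb were related in BAT (0.919), where both were called higher. Pros1 was related to C2 (0.899) and C1qa (0.842) in WAT and to Cfp in BAT (0.902, and 0.35 after centring). By rho, Pros1 did not pass with C2 or C1qa in WAT (adjusted p = 0.08397 and 0.0556, permutation test). The 1 negative relation was F2 with Cfi in WAT (-0.931, and -0.0955 after centring). Both genes lay below the WAT array median of 6.92, at 6.44 and 6.69. In liver, F11, a contact factor, was related to C6 (0.871, and 0.841 in the water mice), a pair that passed by r but not by rho (adjusted p = 0.08084, permutation test).

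No member's level in 1 tissue was shown to follow its level in another. Of 114 relations between tissues (38 members and 3 pairs of tissues, 12 mice), 0 passed an adjusted p of 0.05. The strongest was F13a1 between liver and BAT, with r of 0.797 (permutation p = 0.00216, adjusted p = 0.2462) and rho of 0.727, and 0.548 without the 2 farthest mice. CAAM mouse 5 was the highest of the 12 mice in both liver and BAT for F13a1 (2.36 and 1.80) and for C1qa (3.24 and 1.45).

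Of the other coagulation and complement genes, limma called 0 of 49 for CAAM against water in each tissue. Rank products called Procr, Itgb2 and Vsig4 higher in liver, at 0.79, 0.97 and 1.69, and 0 genes lower. Vsig4, a complement receptor of liver macrophages, is also in the macrophage list. In WAT rank products called Cpn1 higher at 0.79 and 7 genes lower. These were Procr at -1.18, Plau at -0.74, Fcna, a ficolin, at -0.74, Vwf at -0.62, C1s at -0.40, Clu (clusterin) at -0.21 and C4bp at 0.04. The lower call of C4bp went against the sign of its size, with an SD within groups of 1.07 score units. In BAT, Cd55 was called higher at 1.55 and Itgb2, a chain of complement receptors, lower at -0.36, and Kng1 was called lower at -1.26. The groups of Habp2 in WAT did not overlap. The largest sizes without a call were C1qbp at -2.37 and Cd46 at -2.11 in liver, Habp2 at 1.92 in WAT and C5ar1 at -1.74 in BAT.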

How the data were processed

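RNA of liver, WAT and BAT was hybridised to Affymetrix mouse arrays, 36 in all. The authors quantified the arrays by the DFW method in R (2.7.2 in the submitters' processing notes, while the study's methods name another minor version) and deposited the resulting scores, 1 for every probe set of each array. Each tissue appears to have been summarised in a separate run, and the SD between arrays had a median of 1.08e-05 score units in liver, 1.42e-05 in WAT and 7.38e-06 in BAT, so folds cannot be read from score differences. The design assumed values on a log2 scale, and its tests were kept as written. Other arrays of the study were not analysed here. The number of arrays limits the precision.

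Of 45101 rows, 64 controls were left out. Platform symbols named the genes, and 932 probe sets with several symbols were not used for names. CAAM and water were compared within each tissue by limma 3.58.1 (R 4.3.3; lmFit and eBayes, Benjamini-Hochberg over all probe sets) and by rank products (own implementation, 100 permutations, 20 for alternatives; percentage of false positives under 0.05). Tissues were compared by limma on differences within mice, with at least 1 score unit; with no minimum, 99.7% to 99.9% of all probe sets passed, so no p is given. Relations across mice used permutation tests. Scripts were tested on simulated data.

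The members and all gene lists were chosen with earlier results of these data known. The text names all 40 genes, with a tissue level for the 38 that were measured, every rank product or limma call, and up to 6 members per tissue and direction with the largest standardised difference, and of the other genes those called, the largest sizes and the largest tissue differences. Mouse numbers name different animals in the 2 groups: same-numbered mice correlated between -0.192 and 0.151 over their deviations. No 2 arrays were identical. The p-values of limma and of the relations measure the spread between mice. The percentage of false positives of rank products comes from permuting values within arrays and does not measure that spread.

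Alternatives were quantile normalisation, centring, leaving out dim probe sets (mean below the median), the mouse number as a block, a trended robust prior, array weights, another probe set per gene, differences divided by their SD, other minimum differences, the CAAM mice, and leaving out each mouse. Leaving out WAT arrays high in epididymis genes or BAT arrays high in muscle genes, pairs of members, and centring for relations were added after seeing the data.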

Additional observations from a re-analysis of the deposited data

Results flagged for a closer look

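In 10 of 228 groups of mice (38 members, 3 tissues, 2 groups), the highest or the lowest mouse stood apart from the others by a gap that was a large share of the group's range. Chance gives about 1 in 20, so the total of 10 was not above the number that chance gives. None of the 10 was in liver and 7 were in WAT. In WAT, Fga had a gap of 0.874 of the range in the water mice (mouse 1 highest) and 0.914 in the CAAM mice (mouse 6 highest), Serpinf2 one of 0.837 in the water mice (mouse 1 highest), and Klkb1 one of 0.712 in the CAAM mice (mouse 6 highest). Water mouse 1 and CAAM mouse 6 were also the highest of their groups for the epididymis gene Lcn5 in WAT, at 1.24 and 2.95 SD units, and the part of that tissue in these values was not tested. F10 was low in CAAM mouse 6 (0.712), and F7 (0.715) and Masp1 (0.740) were high in CAAM mouse 2. In BAT, the gaps were 0.629 for Mbl2 (water mouse 6 highest), 0.576 for C8a (water mouse 2 lowest) and 0.757 for C8b (CAAM mouse 6 highest).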

How the results depend on the processing

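limma called 0 members for CAAM against water, and 0 for a difference between tissues, in every alternative run, the mouse number as a block included (0 members in each tissue). For the tissue comparisons, the unpaired fit without the block gave the same counts, 30 and 2 for liver against WAT, 33 and 2 for liver against BAT and 0 and 6 for BAT against WAT. With no minimum difference, 4 members were lower in liver than in WAT, 13 higher and 25 lower in BAT than in WAT. With at least 2 units, 1 was lower in liver than in BAT and 3 lower in BAT than in WAT.

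Dividing differences by their SD left 0 rank product calls in every tissue. Quantile normalisation left 0 lower in WAT and 0 higher in BAT, and leaving out dim probe sets left 0 higher in BAT. Leaving out 1 mouse gave 4 to 6 members higher and 1 to 2 lower in liver (2 lower without CAAM mouse 5), 0 higher and 0 to 7 lower in WAT (0 without water mouse 3 or CAAM mouse 6, 2 without CAAM mouse 5 and 7 without CAAM mouse 7), and 0 to 4 higher and 0 to 2 lower in BAT (0 higher without CAAM mouse 5, 6 or 7, 1 without water mouse 2, 4 or 7 or CAAM mouse 4; 2 lower without water mouse 1 or 4 or CAAM mouse 7, 1 without water mouse 2 or CAAM mouse 5). The cause was not tested.

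In the water mice alone, 0 pairs of members passed in any tissue; 7 mice allow few p-values small enough for 703 pairs. After centring, 404 pairs passed in liver, 603 in WAT and 511 in BAT. Centring subtracts 1 array median from all probe sets, and 26, 31 and 30 of the 38 members had an SD below that of the medians. For the same reason, sizes of members with little spread follow the scaling: quantile normalisation left 5 members in liver without spread, and over 38 members in 3 tissues it moved 25 other sizes by at least 1 SD and centring 36. No called member changed direction in any alternative, and in the tissue comparisons 112 of 114 differences kept their side of 1 unit after quantile normalisation.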
